A study of Drosophila melanogaster and Drosophila simulans and Drosophila yakuba with 24 samples.

Results

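The vacuolar H+-ATPase (V-ATPase) genes of the fruit fly were followed through 4 tissues of wild-type Drosophila melanogaster females. The genes were chosen by name, as every row of the gene table whose symbol begins with Vha, which gave 34 of the 13898 genes listed. Of these, 32 carried the symbol in the deposited table and 2 were matched through the reference gene table, Vha68-2, whose row had no symbol, and VhaAC45RP, listed there under an older name. They encode 15 subunits, with 13 genes for the V1 sector, 18 for the V0 sector and 3 for accessory proteins. The rule reads gene symbols only.

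The V-ATPase is a rotary pump that uses ATP to move protons across membranes. Its cytoplasmic V1 sector holds the catalytic A and nucleotide-binding B subunits in a ring, turned on a central stalk of D and F and held by peripheral stalks of C, E, G and H. In its membrane-bound V0 sector a ring of proteolipids (c and c'') rotates against the large a subunit, which forms the proton path and is known to direct the pump to particular membranes, while d links the ring to the central stalk and e is a small membrane subunit. The pump acidifies lysosomes and endosomes in most cells, drives the filling of synaptic vesicles in neurons and energizes ion transport across epithelia such as the fly's renal (Malpighian) tubules and midgut. Many of its subunits are encoded in the fly by several paralogous genes.

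The samples were ovary, eviscerated abdomen, thorax and head of Canton S wild-type females kept for 10 days after eclosion, with 3 libraries for each tissue made from total RNA after depletion of ribosomal RNA. Each dissection used 25 to 100 flies, so a library is a pool of animals, and the study's methods describe the libraries of a tissue as biologically independent. Reads counted on genes numbered 22247599 to 32498809 in ovary, 7884586 to 11600876 in eviscerated abdomen, 8087981 to 13630001 in thorax and 14040598 to 19208152 in head. The other samples of the series, piwi heterozygous and homozygous fat bodies and small RNA libraries, were not used here. All 4 tissues were wild type, so every difference below lies between body parts, and fewer cells of a type and less RNA per cell cannot be told apart in such bulk samples.

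Tissue markers were checked against the labels, as summed CPM (read counts relative to the library size) scaled by TMM, a factor that allows for differences in RNA composition. The 6 head markers summed to between 32164 and 36672 CPM in head and to at most 292 CPM in any library of the other tissues. The 6 muscle markers of the thorax summed to between 2352 and 3581 CPM there, above the other tissues. A list of 11 midgut genes summed to 568 to 1952 CPM in eviscerated abdomen, 9454 to 14585 CPM in thorax and 17.5 to 28.6 CPM in head. In eviscerated abdomen 8 genes of fat body and oenocytes, at 56266 to 77056 CPM, stood below thorax (123113 to 170170 CPM) and head (124820 to 162706 CPM). In ovary, 8 germline genes stood at 2849 to 3073 CPM and 9 follicle cell genes at 12324 to 13227 CPM. The abdomen libraries also carried these germline genes at 776, 1997 and 1721 CPM, against 69.1 to 95.9 CPM in thorax and 75.7 to 92.0 CPM in head, and the follicle cell genes at 4079 to 6026 CPM, against 32.8 to 115 CPM in thorax and 53.7 to 58.2 CPM in head. Of the 8 germline genes, 7 were highest in ovary. The remaining gene, grk, averaged 18.3 CPM in ovary, 20.1 CPM in eviscerated abdomen, 59.5 CPM in thorax and 25.1 CPM in head. The abdomen libraries therefore carried RNA of ovarian genes and replicate 1 the least germline RNA of the 3. The part of this in the results for eviscerated abdomen was not tested. Likewise the part of midgut RNA in the results for thorax was not tested.

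Summed over the 34 genes, V-ATPase transcripts stood at 4334, 4270 and 4451 CPM in ovary, 4299, 4342 and 4364 CPM in eviscerated abdomen, 9068, 8752 and 8046 CPM in thorax and 5173, 5304 and 5714 CPM in head. Thorax had the highest sum and ovary and eviscerated abdomen the lowest, and the libraries of ovary and eviscerated abdomen overlapped. The order of the sums depended on the scale. By library size alone the sums were 5648 CPM ± 24.02 in ovary, 4569 CPM ± 229 in eviscerated abdomen, 6913 CPM ± 157 in thorax and 4904 CPM ± 175 in head (SD, n = 3 each), so that thorax stayed highest and ovary passed head. On deposited RPKM the ranking changed, with ovary highest at 2338 ± 46.0, eviscerated abdomen at 649 ± 44.8, thorax at 1606 ± 298 and head lowest at 535 ± 139 (SD, n = 3 each). With RPKM rescaled to the same total in every library (TPM), thorax was again highest at 5601 ± 226. Head followed at 4628 ± 213, ovary at 4440 ± 122 and eviscerated abdomen at 3436 ± 336 (SD, n = 3 each). Vha16-1, which encodes the c proteolipid, alone made up 26.1% of the summed CPM of ovary, 27.8% of that of eviscerated abdomen, 42.7% of that of thorax and 43.6% of that of head.

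Of the 34 genes, 25 had enough counts to be tested and 9 did not. Among the tested genes the mean CPM scaled by TMM was highest in thorax for 13, in head for 6, in ovary for 3 and in eviscerated abdomen for 3. How all genes tested divide by their highest tissue was not counted. These ranks depended on the scale. Of the 13, Vha36-3, Vha100-5 and Vha16-1 stayed highest in thorax on deposited RPKM, and the others were highest in ovary. The 3 libraries of thorax did not overlap those of head for 56.9% of all genes tested and for 23 of these 25. The 3 libraries of ovary did not overlap those of head for 90.7% of all genes tested and for 21 of the 25. All of the 9 untested genes were highest in head, with 3 to 55 counts each over the 12 libraries. The share of all untested genes that were highest in head was not counted.

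**Figure D1:**
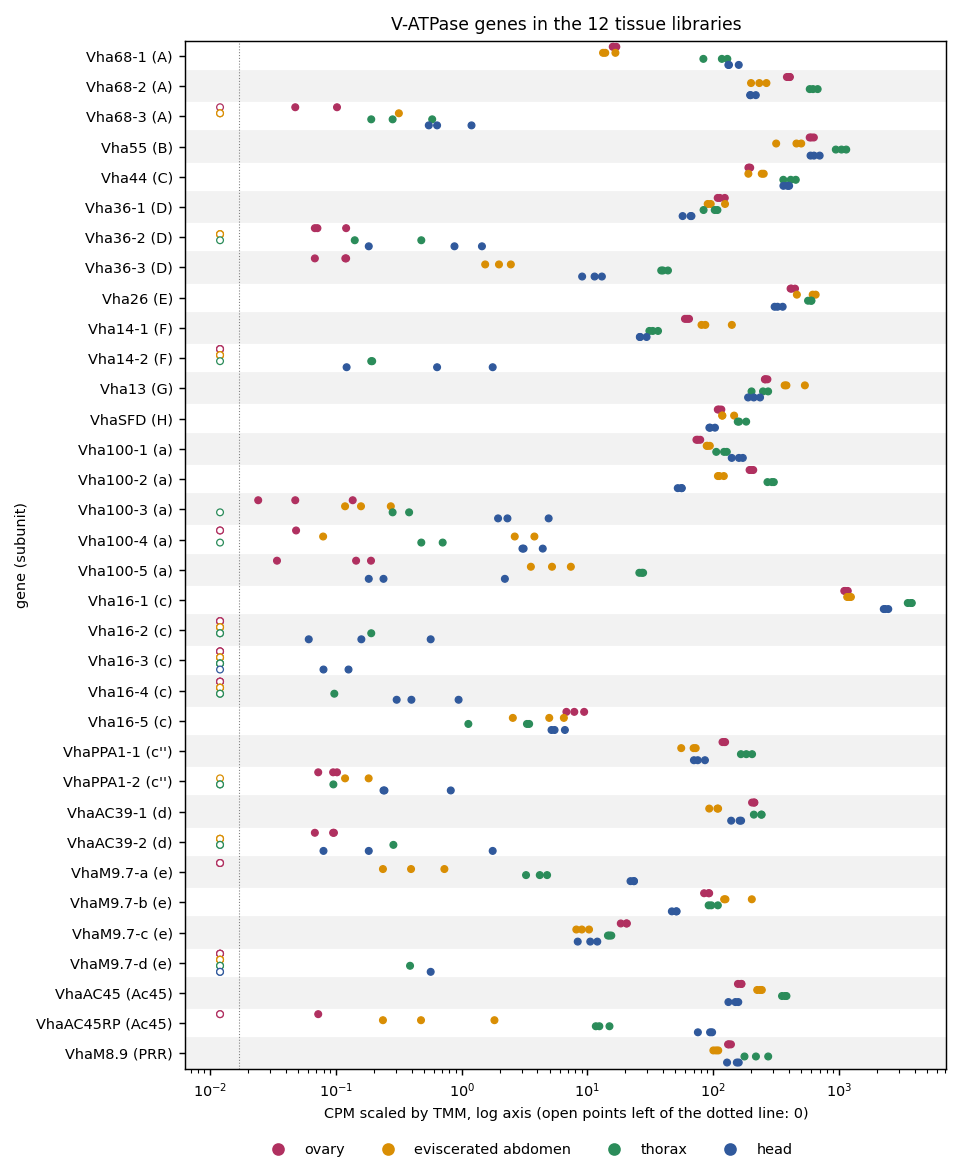
Level of each of the 34 V-ATPase genes (rows, subunit in parentheses) in CPM scaled by TMM on a log axis, with 1 point a library and a colour for each tissue; open points mark a count of 0. Vha16-1 lies to the right of all other genes in every tissue. Each gene with points below 1 CPM has a paralogue with a higher mean CPM in every tissue. Some of these genes lie well above 1 CPM elsewhere, as VhaAC45RP and VhaM9.7-a do in head, with means of 89.3 and 22.9 CPM.

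The subunits encoded by a single gene were present in every library. Vha55, the B subunit, had 631, 585 and 603 CPM in ovary, 317, 501 and 459 CPM in eviscerated abdomen, 1142, 1047 and 943 CPM in thorax and 594, 632 and 702 CPM in head. Its thorax libraries lay above those of every other tissue, with a log2 fold change of 0.70 ± 0.18 (SE) over head (edgeR adjusted p = 0.00656), and its abdomen libraries lay below those of thorax (log2 fold change -1.29 ± 0.18, edgeR adjusted p = 2.5e-05). Vha26, the E subunit of the peripheral stalks, had 412, 419.6 and 447 CPM in ovary, 462, 652 and 618 CPM in eviscerated abdomen, 567, 604 and 600.3 CPM in thorax and 308, 324 and 357 CPM in head. It rose in thorax relative to head by 0.84 ± 0.16 on the log2 scale (edgeR adjusted p = 0.000734), while its abdomen and thorax libraries overlapped.

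Vha44, the C subunit, whose release accompanies disassembly of the pump in yeast and insects, had a different order. It stood at 193, 190.4 and 197 CPM in ovary, 190.3, 243 and 252 CPM in eviscerated abdomen, 453, 413 and 361 CPM in thorax and 390.0, 361 and 401 CPM in head. Thorax and head overlapped, and ovary was below head by a log2 fold change of -0.99 ± 0.15 (edgeR adjusted p = 3.58e-05), a direction that reversed to 1.29 in limma on log2 RPKM. VhaSFD, the H subunit, had 112, 109 and 116 CPM in ovary, 147, 118 and 118 CPM in eviscerated abdomen, 183, 161 and 157 CPM in thorax and 93.2, 94.6 and 103 CPM in head. Its thorax libraries were the highest and its head libraries the lowest (thorax over head, log2 fold change 0.78 ± 0.13, edgeR adjusted p = 0.000425).

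Vha13, the G subunit of the peripheral stalks, was highest in eviscerated abdomen in CPM scaled by TMM. It had 257, 259.7 and 269.6 CPM in ovary, 535, 382 and 369.6 CPM in eviscerated abdomen, 273, 249 and 202 CPM in thorax and 189, 236 and 210.1 CPM in head. The abdomen libraries were above all the others, by 1.02 ± 0.18 over head (edgeR adjusted p = 0.000174) and 0.83 ± 0.18 over thorax (edgeR adjusted p = 0.000929) on the log2 scale, while the thorax libraries overlapped those of ovary and of head. Vha14-1 and VhaM9.7-b, were also highest in eviscerated abdomen. So was the sum of 8 Malpighian tubule genes, at 80.9 to 88.7 CPM in ovary, 152 to 211 CPM in eviscerated abdomen, 39.9 to 80.4 CPM in thorax and 50.6 to 60.4 CPM in head, with 6 of the 8 highest in eviscerated abdomen. The part of these tubule genes in the levels of Vha13, Vha14-1 and VhaM9.7-b was not tested. As TPM eviscerated abdomen stayed highest for Vha13, Vha14-1 and VhaM9.7-b. On deposited RPKM ovary was highest for Vha13 (396, against 164 in eviscerated abdomen), Vha14-1 (103, against 43.2) and VhaM9.7-b (80.4, against 34.0).

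VhaM8.9 encodes the accessory protein known in mammals as the prorenin receptor (ATP6AP2). It had 131, 133 and 138 CPM in ovary, 105, 109.6 and 100.2 CPM in eviscerated abdomen, 274, 219 and 177 CPM in thorax and 129, 154 and 159.5 CPM in head. Thorax lay above the other tissues, with a log2 fold change of 0.60 ± 0.16 over head (edgeR adjusted p = 0.00963), and ovary and head overlapped.

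For the 9 subunits with several genes, the question was which paralogue carried the transcripts in which tissue. The share of a gene was taken as its percentage of the subunit's summed RPKM in the same library, a measure that does not depend on the library total. The shares differed between the 4 tissues for subunits A, D, a, e and Ac45 in an exact permutation test over the libraries (adjusted p = 0.000117 for each, from p = 6.49e-05, the smallest that the 369600 assignments of libraries to tissues can give; 9 subunits tested). For these 5 subunits the tissue differences were large, and leaving out any single library did not end the call. The other 4 subunits drew at least 97.9% of their mean RPKM from a single gene in every tissue.

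**Figure D2:**
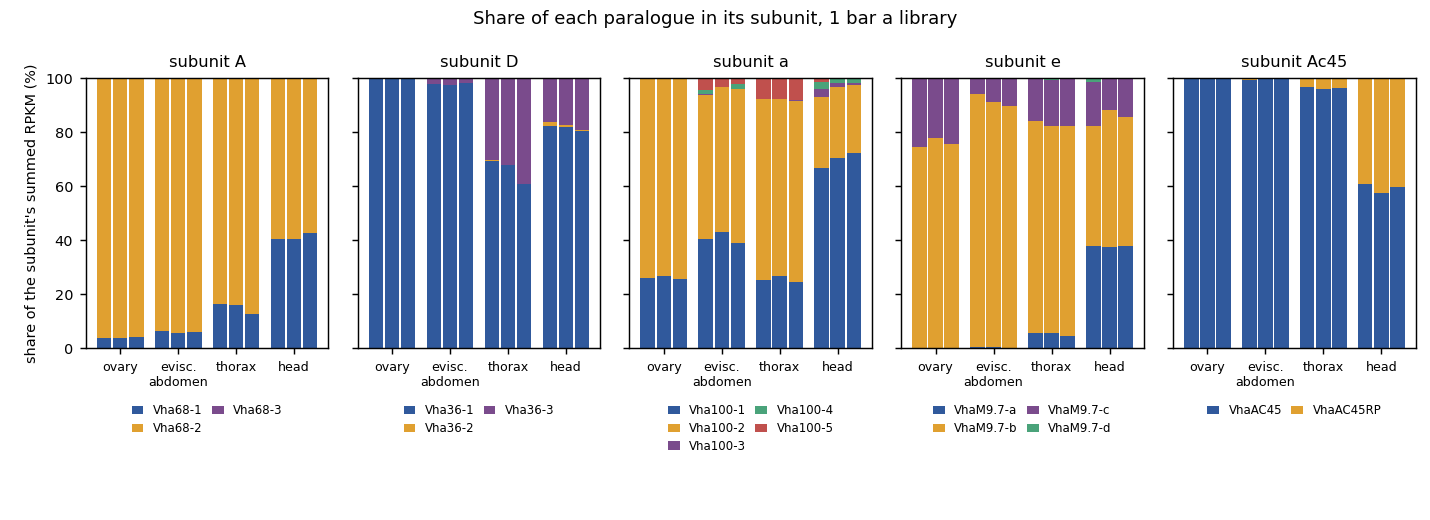
Share of each paralogue in the summed RPKM of its subunit (per cent), with 1 stacked bar for each library, for the 5 subunits whose shares differed most between tissues. The bars of a tissue are alike, and in head Vha68-1, Vha100-1, VhaM9.7-a and VhaAC45RP take larger shares than in any other tissue, while Vha36-3 is largest in thorax.

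The catalytic A subunit came almost wholly from Vha68-2 in ovary and from both Vha68-2 and Vha68-1 in head. Vha68-2 had 407, 385 and 403 CPM in ovary, 199.9, 233 and 265 CPM in eviscerated abdomen, 677, 622 and 585 CPM in thorax and 197, 198 and 218 CPM in head. It rose in thorax relative to head (log2 fold change 1.62 ± 0.15, edgeR adjusted p = 1.53e-06) and in ovary relative to head (0.96 ± 0.14, edgeR adjusted p = 3.15e-05), while abdomen and head overlapped. Vha68-1, singled out after its values were seen, had 16.1, 15.9 and 16.97 CPM in ovary, 13.3, 13.9 and 16.7 CPM in eviscerated abdomen, 129, 117 and 83.5 CPM in thorax and 132, 133 and 159.5 CPM in head. Ovary and abdomen lay far below thorax and head. Relative to head its log2 fold change was -3.12 ± 0.18 in ovary (edgeR adjusted p = 2.16e-09) and -3.28 ± 0.18 in eviscerated abdomen (edgeR adjusted p = 4.31e-09). Relative to thorax it was -2.75 ± 0.18 in ovary (edgeR adjusted p = 7.38e-09) and -2.92 ± 0.18 in eviscerated abdomen (edgeR adjusted p = 2.03e-08). Its share of subunit A was 3.996% ± 0.114 in ovary, 6.01% ± 0.317 in eviscerated abdomen, 15.0% ± 2.03 in thorax, with 41.2% ± 1.22 in head (SD, n = 3 each). Vha68-3, which lies next to Vha68-2 in the genome, took at most 0.396% in any library.

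The D subunit of the central stalk was carried by Vha36-1 and, in thorax and head, also by Vha36-3. Vha36-1 had 113, 109 and 124 CPM in ovary, 124, 90.4 and 95.5 CPM in eviscerated abdomen, 108, 103 and 83.8 CPM in thorax and 57.1, 66.1 and 67.1 CPM in head. Head was lower than the other tissues, and the abdomen libraries overlapped those of ovary and of thorax (thorax over head, log2 fold change 0.63 ± 0.16, edgeR adjusted p = 0.0058). Vha36-3 had 0.119, 0.0681 and 0.121 CPM in ovary, 2.46, 1.98 and 1.54 CPM in eviscerated abdomen, 38.6, 39.9 and 43.7 CPM in thorax and 9.08, 11.4 and 13.0 CPM in head. No tissue overlapped another. It rose in thorax relative to head (log2 fold change 1.86 ± 0.17, edgeR adjusted p = 2.08e-06) and fell in eviscerated abdomen relative to thorax (-4.33 ± 0.21, edgeR adjusted p = 3.49e-09), in eviscerated abdomen relative to head (-2.47 ± 0.21, edgeR adjusted p = 2.23e-07), in ovary relative to thorax (-8.49 ± 0.27, edgeR adjusted p = 2e-11) and in ovary relative to head (-6.63 ± 0.27, edgeR adjusted p = 6.89e-11). Its share of subunit D was 0.109% ± 0.0279 in ovary, 2.32% ± 0.346 in eviscerated abdomen, 34.0% ± 4.51 in thorax, with 17.6% ± 1.59 in head (SD, n = 3 each). The 3 haemocyte genes had the same order of tissues as Vha36-3 in their sum, at 150 CPM in ovary, 169 CPM in eviscerated abdomen, 566 CPM in thorax and 305 CPM in head. Hml had it too, at 0.522 CPM in ovary, 37.8 CPM in eviscerated abdomen, 414 CPM in thorax and 181 CPM in head. So did NimC1, at 0.00793 CPM in ovary, 1.21 CPM in eviscerated abdomen, 26.5 CPM in thorax and 11.7 CPM in head. The remaining gene, crq, had another order, highest in ovary and lowest in head. It stood at 149 CPM in ovary, 130 CPM in eviscerated abdomen, 125 CPM in thorax and 112 CPM in head. The 11 midgut genes summed to 9.47 CPM in ovary, 1096 CPM in eviscerated abdomen, 12239 CPM in thorax and 22.1 CPM in head. The part of either cell type in the level of Vha36-3 was not tested. Vha36-2 reached at most 1.74% of subunit D, in head replicate 1.

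The F subunit, the partner of D in the central stalk, came from Vha14-1, with 100% of the RPKM in ovary and eviscerated abdomen and at least 97.4% in each thorax and head library. Vha14-1 had 59.6, 61.9 and 64.2 CPM in ovary, 141, 80.7 and 86.5 CPM in eviscerated abdomen, 36.4, 33.1 and 31.1 CPM in thorax and 26.1, 26.2 and 29.5 CPM in head. The tissues did not overlap. Eviscerated abdomen was above head by 1.91 ± 0.19 (edgeR adjusted p = 1.17e-06) and above thorax by 1.61 ± 0.19 (edgeR adjusted p = 6.3e-06) on the log2 scale, and ovary was above head by 1.18 ± 0.19 (edgeR adjusted p = 5.62e-05) and above thorax by 0.88 ± 0.19 (edgeR adjusted p = 0.000684).

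The a subunit had 5 paralogues, with Vha100-1 and Vha100-2 abundant and 3 others scarce in most tissues. Vha100-1 is known in flies from photoreceptor neurons, where it acts at synapses. It had 78.8, 75.5 and 73.5 CPM in ovary, 89.9, 93.9 and 88.8 CPM in eviscerated abdomen, 122, 128 and 106 CPM in thorax and 140.3, 160.1 and 172 CPM in head, and was lower in ovary than in head (log2 fold change -1.05 ± 0.13, edgeR adjusted p = 4.84e-06), with the direction reversed to 1.22 in limma on log2 RPKM. Vha100-2 had 208, 195 and 201 CPM in ovary, 112, 109 and 121 CPM in eviscerated abdomen, 303, 292 and 269.9 CPM in thorax and 52.3, 55.9 and 56.2 CPM in head. The tissues of each gene did not overlap in CPM scaled by TMM, and their order was not the same. Vha100-2 was lowest in head, with a log2 fold change of 1.88 ± 0.13 in ovary (edgeR adjusted p = 9.61e-09), 1.06 ± 0.12 in eviscerated abdomen (edgeR adjusted p = 4.67e-06) and 2.40 ± 0.13 in thorax (edgeR adjusted p = 1.86e-08) relative to head. In ovary the shares of Vha100-1 and Vha100-2 in the subunit's RPKM were 26.1% ± 0.595 and 73.8% ± 0.585, in eviscerated abdomen 40.9% ± 2.16 and 54.6% ± 1.93, in thorax 25.6% ± 1.19 and 66.4% ± 0.851, and in head 69.8% ± 2.86 and 25.9% ± 0.697 (SD, n = 3 each). Of the 4 tissues, head alone had more of Vha100-1 than of Vha100-2.

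Vha100-5 was largely a thorax transcript. It had 0.190, 0.0340 and 0.145 CPM in ovary, 7.38, 5.23 and 3.55 CPM in eviscerated abdomen, 27.7, 27.0 and 25.9 CPM in thorax and 2.21, 0.239 and 0.183 CPM in head. Thorax was above all the other libraries and abdomen came next, while ovary and head overlapped. The log2 fold change was 4.89 ± 0.59 in thorax (edgeR adjusted p = 2.1e-05) and 2.58 ± 0.60 in eviscerated abdomen (edgeR adjusted p = 0.00163) relative to head, and -5.30 ± 0.69 in ovary relative to eviscerated abdomen (edgeR adjusted p = 1.7e-05). Head replicate 1 held 35 of the 41 counts in head, and without it the first and second of these values were 6.97 and 4.66. The summed level of the 11 midgut genes was also highest in thorax and next in eviscerated abdomen, with 7 of the 11 genes highest in thorax, 3 in eviscerated abdomen and 1 in head. Their part in the level of Vha100-5 was not tested.

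Vha100-3 and Vha100-4 were scarce and had their highest mean in head. Vha100-3 had 2, 4 and 1 counts in ovary, 3, 2 and 1 in eviscerated abdomen, 4, 0 and 2 in thorax, with 78, 29 and 32 in head. It was lower than in head by a log2 fold change of -3.99 ± 0.80 in eviscerated abdomen (edgeR adjusted p = 0.00055) and -3.78 ± 0.80 in thorax (edgeR adjusted p = 0.00208). The thorax value was -4.55 without thorax replicate 1 and -3.13 without thorax replicate 2. Vha100-4, which lies next to Vha100-2 in the genome, had 0, 0 and 2 counts in ovary, 29, 1 and 32 in eviscerated abdomen, 5, 0 and 5 in thorax, with 70, 39 and 50 in head. Its abdomen libraries were split, with replicate 2 at 0.0792 CPM and replicates 1 and 3 at 2.64 and 3.79 CPM. They overlapped those of head, and the difference missed the threshold (log2 fold change -0.73 ± 0.88, edgeR adjusted p = 0.469). Pooled over libraries, the level in ovary was lower than in head by a ratio of 200.1 (95% exact interval of counting error 54.5 to 1667) and lower than in eviscerated abdomen by a ratio of 109 (29.0 to 922). Both ovary counts lay in replicate 3. Without it, against a floor of 3 counts over the other 2 ovary libraries, ovary was at least 83.9-fold lower than head and at least 51.7-fold lower than eviscerated abdomen. Thorax was lower than head by a log2 fold change of -3.22 ± 1.07 (edgeR adjusted p = 0.0275), but this difference missed the threshold when any of 7 single libraries was left out (adjusted p of 0.0516 to 0.0934), among them thorax replicates 1 and 2 and head replicates 1 and 2.

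The proteolipid ring of V0 was encoded almost wholly by Vha16-1, which had the highest CPM of the V-ATPase genes in every tissue, a scale that does not allow for gene length. Vha16-1 had 1102, 1128 and 1174 CPM in ovary, 1244, 1162 and 1211 CPM in eviscerated abdomen, 3792, 3735 and 3523 CPM in thorax and 2329.8, 2269 and 2464 CPM in head. Thorax was above head by 0.65 ± 0.14 on the log2 scale (edgeR adjusted p = 0.00192), ovary was below head by a log2 fold change of -1.05 ± 0.14 (edgeR adjusted p = 7.98e-06) and below thorax by -1.70 ± 0.14 (edgeR adjusted p = 7.83e-08), and eviscerated abdomen was below thorax by -1.61 ± 0.14 (edgeR adjusted p = 3.18e-07). In limma on log2 RPKM the value for ovary relative to head reversed to 1.23. Its share of subunit c was at least 97.5% in every library. Vha16-5 made up most of the rest, with 9.42, 7.86 and 6.81 CPM in ovary, 2.55, 6.495 and 4.97 CPM in eviscerated abdomen, 3.44, 3.31 and 1.13 CPM in thorax and 6.62, 5.18 and 5.48 CPM in head. It was higher in ovary than in thorax (log2 fold change 1.57 ± 0.38, edgeR adjusted p = 0.00165), the reverse of Vha16-1, and its share was 2.06% ± 0.391 in ovary and 0.208% ± 0.0978 in thorax (SD, n = 3 each). The shares of subunit c differed between tissues (exact permutation test, adjusted p = 0.00156). Vha16-2, Vha16-3 and Vha16-4 had no count in ovary or eviscerated abdomen and 14, 3 and 26 counts in all.

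The c'' proteolipid, VhaPPA1-1, had 119, 122 and 124 CPM in ovary, 72.5, 55.7 and 69.8 CPM in eviscerated abdomen, 183, 204 and 166 CPM in thorax and 70.2, 75.3 and 86.0 CPM in head. Thorax and then ovary lay above abdomen and head, which overlapped. Thorax exceeded head by 1.26 ± 0.15 (edgeR adjusted p = 1.42e-05) and ovary exceeded eviscerated abdomen by 0.88 ± 0.15 (edgeR adjusted p = 0.000127) on the log2 scale. VhaAC39-1, the d subunit, had 212, 204 and 212 CPM in ovary, 93.0, 109 and 108 CPM in eviscerated abdomen, 241, 243 and 210.4 CPM in thorax and 139, 162 and 167 CPM in head. Ovary and thorax overlapped at the top and abdomen was lowest, with ovary above abdomen by a log2 fold change of 1.02 ± 0.14 (edgeR adjusted p = 2.16e-05). The share test passed the threshold for c'' (exact permutation test, adjusted p = 0.00409) and F (0.046) and missed it for d (0.087). These 3 tests turned on VhaPPA1-2, Vha14-2 and VhaAC39-2, each with 34 to 45 counts in all, and the calls for c'' and F were lost without any single library of ovary, eviscerated abdomen or thorax (adjusted p of 0.0526 to 0.0698).

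The small e subunit was shared by VhaM9.7-b, VhaM9.7-c and, mainly in head, VhaM9.7-a. VhaM9.7-b had 84.6, 92.8 and 91.9 CPM in ovary, 203, 122 and 125 CPM in eviscerated abdomen, 109, 96.5 and 92.0 CPM in thorax and 46.9, 51.2 and 50.8 CPM in head. It was lowest in head and highest in abdomen, with a log2 fold change of 1.596 ± 0.19 in eviscerated abdomen (edgeR adjusted p = 4.56e-06) and 1.00 ± 0.18 in thorax (edgeR adjusted p = 0.000723) relative to head, and of 0.60 ± 0.18 in eviscerated abdomen relative to thorax (edgeR adjusted p = 0.00974). This last difference missed the threshold in DESeq2 (adjusted p = 0.0665) and was -0.10 in limma on log2 RPKM. VhaM9.7-a ran the other way, with 0, 0 and 0 counts in ovary, 8, 5 and 2 in eviscerated abdomen, 50, 43 and 23 in thorax, with 371, 276 and 385 in head. It stood at 4.78, 4.18 and 3.25 CPM in thorax, against 23.4, 22.0 and 23.4 CPM in head, a log2 fold change of -2.48 ± 0.25 in thorax (edgeR adjusted p = 1.08e-05). It was lower still in eviscerated abdomen, by -5.60 ± 0.32 relative to head (edgeR adjusted p = 3.04e-08) and -3.12 ± 0.34 relative to thorax (edgeR adjusted p = 8.36e-06). Against a floor of 3 counts over the 3 ovary libraries, its level was at least 863-fold lower in ovary than in head, at least 153-fold lower than in thorax and at least 17.1-fold lower than in eviscerated abdomen.

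VhaM9.7-c had 20.4, 18.4 and 20.6 CPM in ovary, 9.02, 8.16 and 10.3 CPM in eviscerated abdomen, 15.5, 15.0 and 14.6 CPM in thorax and 11.98, 8.37 and 10.5 CPM in head. It was highest in ovary, with a log2 fold change of 1.12 ± 0.16 over eviscerated abdomen (edgeR adjusted p = 3.48e-05), and the smaller rise over thorax, 0.40 ± 0.15 (edgeR adjusted p = 0.0276), was lost without thorax replicate 3 (adjusted p = 0.0537) or ovary replicate 3 (0.0521), and in DESeq2 (0.646). In ovary VhaM9.7-b took 76.0% ± 1.78 of the RPKM of subunit e and VhaM9.7-c 24.04% ± 1.78. In eviscerated abdomen they took 91.1% ± 2.16 and 8.396% ± 2.30, with VhaM9.7-a at 0.456% ± 0.149, and in thorax 77.5% ± 0.838 and 16.9% ± 0.851, with VhaM9.7-a at 5.42% ± 0.630. In head VhaM9.7-a took 37.7% ± 0.321, VhaM9.7-b 47.7% ± 3.15 and VhaM9.7-c 14.1% ± 2.19 (SD, n = 3 each).

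The accessory subunit Ac45, which accompanies the V0 sector, was encoded by VhaAC45 and by its related gene VhaAC45RP. VhaAC45 had 168, 157 and 167 CPM in ovary, 224, 243 and 235 CPM in eviscerated abdomen, 372, 382 and 352 CPM in thorax and 132, 150.1 and 158 CPM in head, and rose in thorax relative to head by 1.33 ± 0.13 on the log2 scale (edgeR adjusted p = 2.96e-06). VhaAC45RP had 0, 0 and 3 counts in ovary, 20, 6 and 2 in eviscerated abdomen, 122, 154 and 88 in thorax, with 1198, 1229 and 1551 in head. No tissue overlapped another in CPM, and thorax stood at 11.7, 15.0 and 12.4 CPM, against 75.5, 98.0 and 94.4 CPM in head, the highest. The log2 fold change was -2.78 ± 0.31 in thorax (edgeR adjusted p = 1.01e-05) and -6.67 ± 0.42 in eviscerated abdomen (edgeR adjusted p = 1.11e-08) relative to head, and -3.89 ± 0.43 in eviscerated abdomen relative to thorax (edgeR adjusted p = 2.93e-06). Without abdomen replicate 1, which held 20 of the 28 abdominal counts, the abdomen values were -7.83 and -5.07. The pooled level in ovary was lower than in head by a ratio of 3338, with a 95% exact interval of counting error of 1141 to 16194, and lower than in thorax by a ratio of 492 (167 to 2397). All 3 ovary counts lay in replicate 3. Without it, against a floor of 3 counts over the other 2 ovary libraries, the level in ovary was at least 2127-fold lower than in head and at least 310.1-fold lower than in thorax. VhaAC45RP took 0.0164% ± 0.0283 of the subunit's RPKM in ovary, 0.416% ± 0.434 in eviscerated abdomen, 3.83% ± 0.410 in thorax, with 40.7% ± 1.63 in head (SD, n = 3 each).

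In CPM scaled by TMM, Vha100-1, VhaM9.7-a and VhaAC45RP had the same order of tissues with no overlap. They were lowest in ovary, then eviscerated abdomen, then thorax, and highest in head, whereas Vha68-1 overlapped between ovary and eviscerated abdomen. For Vha100-1 the order depended on the scale. As TPM its ovary mean, 45.8, was above that of eviscerated abdomen, 39.1, and on RPKM ovary was highest, at 24.1. Lack of overlap was common among all genes tested. It held for 74.1% of them between ovary and eviscerated abdomen, 71.9% between eviscerated abdomen and thorax and 56.9% between thorax and head. A list of 5 neuronal vesicle transporters that depend on the proton gradient (VGlut, VAChT, VGAT, Vmat and prt) summed to 1.53 to 3.21 CPM in ovary, 12.9 to 14.9 CPM in eviscerated abdomen, 223 to 305 CPM in thorax and 1140.5 to 1425 CPM in head. All 5 passed the test as lower in ovary and in eviscerated abdomen, each set against thorax and against head, and as lower in thorax relative to head, with median log2 fold changes of -11.07 in ovary, -7.92 in eviscerated abdomen and -1.77 in thorax relative to head. Among all genes tested, 46.4% were called lower in ovary, 39.2% in eviscerated abdomen and 25.4% in thorax, each relative to head. Relative to thorax, 43.7% were lower in ovary and 36.9% in eviscerated abdomen. The part of neuronal RNA in the levels of the V-ATPase paralogues was not tested.

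The 9 genes below the test's filter (Vha68-3, Vha36-2, Vha14-2, Vha16-2, Vha16-3, Vha16-4, VhaPPA1-2, VhaAC39-2 and VhaM9.7-d) are minor paralogues of subunits that also have an abundant gene. Together they had 35 counts in ovary, 7 in eviscerated abdomen, 31 in thorax and 146, 39 and 27 in the 3 head libraries. For all 9, head replicate 1 was the highest of the 12 libraries. How many of all genes below the filter were highest there was not counted, so this is not shown to be particular to these 9. VhaAC39-2 had 28 counts in that library and 1 and 3 in the other head libraries, and Vha14-2 had 28, against 8 and 2. A list of 15 testis-biased genes was added after these counts were seen. Summed over all 15, it stood at 142.9, 147 and 149.9 CPM in head replicates 1, 2 and 3, while 12 of the 15 genes had their highest level among the head libraries in replicate 1. The 12 of them below the filter summed to 9.64 CPM in head replicate 1, against 3.75 and 2.62 CPM in replicates 2 and 3, and 11 of the 12 were highest there. Their part in the low-count paralogues was not tested.

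Over the 25 tested genes, thorax against head gave 15 higher and 6 lower at an adjusted p of 0.05 (edgeR), or 60% and 24%, where 16.5% of all 11188 genes tested were called higher and 25.4% lower. The median log2 fold change was 0.60, against -0.17 over all genes tested. The largest rises were those of Vha100-5, Vha100-2 and Vha36-3 and the largest falls those of Vha100-3, Vha100-4 and VhaAC45RP. On deposited RPKM with 0.1 added (limma) the split was 18 higher and 4 lower, where 53.8% of all genes were higher and 11.1% lower. The count of lower genes was 3 without head replicate 2 or without any single ovary library.

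Eviscerated abdomen against head gave 9 higher and 11 lower, with 35.8% of all genes higher and 39.2% lower, and a median of -0.30 against -0.08. On RPKM the split was 9 higher and 6 lower, with 38.5% and 31.2% of all genes. Eviscerated abdomen against thorax gave 3 higher (Vha14-1, Vha13 and VhaM9.7-b) and 17 lower, or 12% and 68%, with 35.5% of all genes higher and 36.9% lower, and a median of -0.84 against -0.08. By library size alone the split was 6 higher and 13 lower, with 43.9% and 28.4% of all genes.

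Ovary against thorax likewise gave 3 higher (Vha16-5, Vha14-1 and VhaM9.7-c) and 17 lower, with 40.3% of all genes higher and 43.7% lower, and a median of -0.66 against -0.11. The split depended on the scaling, since by library size alone it was 7 higher and 8 lower, with 50.4% and 35.8% of all genes and a median over all genes of 0.57. On RPKM it was 13 higher and 5 lower, with 55.9% and 30.2% of all genes. Ovary against head gave 9 higher and 10 lower, with 39.3% and 46.4% of all genes, where the percentages are those higher and lower. The split was 15 higher and 10 lower by library size alone (46.5% and 40.6% of all genes), 7 higher and 12 lower in DESeq2 (34.9% and 50.8%), and 18 higher and 6 lower on RPKM (62.1% and 27.6%). The median of all genes for ovary relative to head on RPKM was 1.95. Ovary against eviscerated abdomen gave 6 higher, led by VhaM9.7-c, VhaAC39-1 and VhaPPA1-1, and 10 lower, with 32.6% and 35.9% of all genes. It gave 10 higher and 8 lower by library size alone (41.3% and 31.3% of all genes) and 19 higher and 5 lower on RPKM (66.3% and 15.8%). The splits of all genes moved with the scaling too. The comparisons share tissues, so their counts are not independent.

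**Figure D3:**
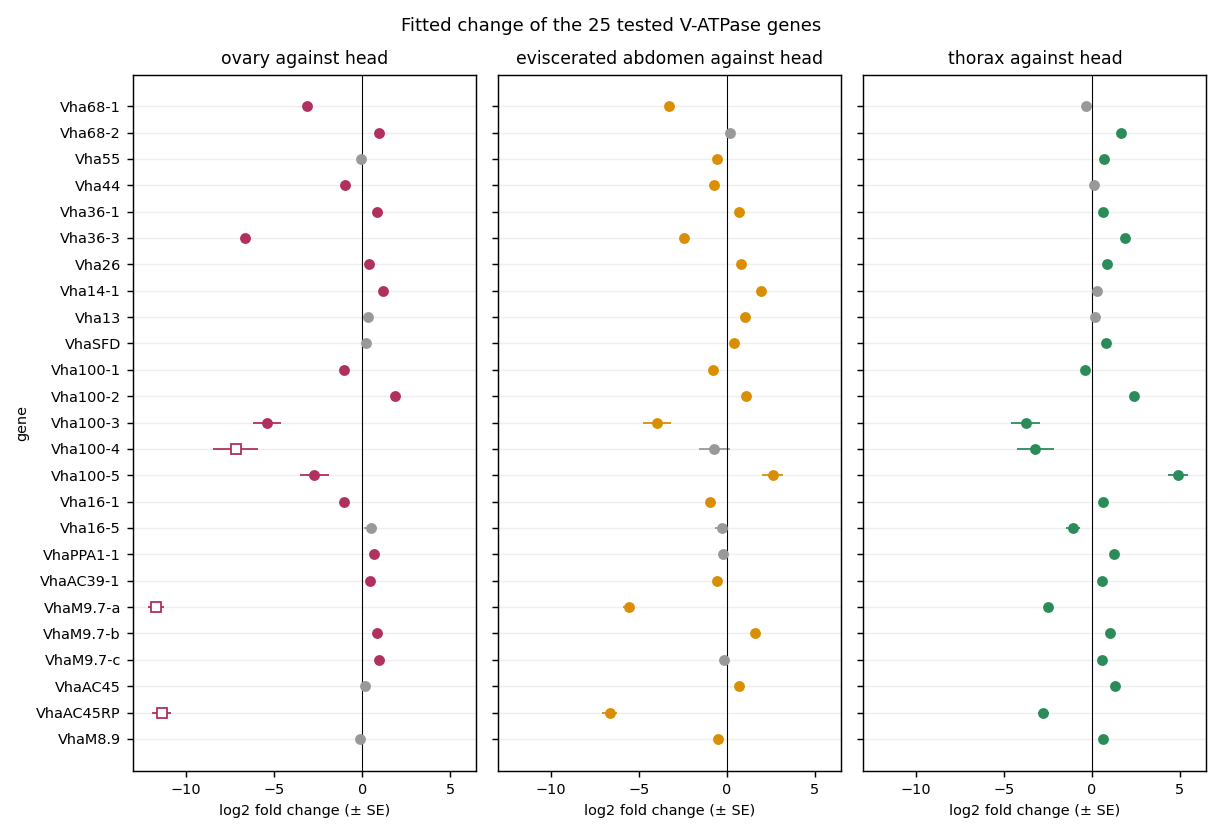
Log2 fold change with its standard error (edgeR quasi-likelihood fit) of the 25 tested genes in ovary, eviscerated abdomen and thorax, each relative to head; grey points have an adjusted p of 0.05 or more, and open squares mark genes with at most 3 counts over the 3 ovary libraries, whose fitted value depends on the prior count. Vha68-1, Vha100-1, Vha100-3, Vha100-4, VhaM9.7-a and VhaAC45RP lie left of 0 in all panels, Vha68-1 in grey for thorax and Vha100-4 in grey for eviscerated abdomen. Vha68-2, Vha36-1, Vha26, Vha14-1, Vha13, VhaSFD, Vha100-2, VhaM9.7-b and VhaAC45 lie right of 0 in all panels, some of them in grey.

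Levels of different genes were compared per length, as TPM (RPKM rescaled to the same total in every library) computed from the deposited RPKM. In ovary subunit c, with 760.0 TPM ± 9.42, was close to subunit G, with 751 TPM ± 13.8. In eviscerated abdomen c stood at 571 TPM ± 76.8 and G was higher, with 859 TPM ± 39.9. Subunit c led in thorax with 1814 TPM ± 129 and in head with 1504 TPM ± 125 (SD, n = 3 each). The A and B subunits, which form the catalytic ring in equal numbers, stood at a TPM ratio of A to B of 0.709 ± 0.0136 in ovary, 0.615 ± 0.0954 in eviscerated abdomen, 0.734 ± 0.0016 in thorax, with 0.562 ± 0.0159 in head. The ratio of c to B was 1.69 ± 0.0945 in ovary, 2.65 ± 0.748 in eviscerated abdomen, 3.14 ± 0.181 in thorax, with 3.28 ± 0.204 in head, and that of F to B was 0.435 ± 0.0288 in ovary, 1.13 ± 0.664 in eviscerated abdomen, 0.137 ± 0.00291 in thorax, with 0.183 ± 0.00763 in head (SD, n = 3 each). The spread in eviscerated abdomen came mainly from replicate 1, where B stood at 138 TPM, against 290 and 264 TPM in replicates 2 and 3. These ratios are of transcripts and were not tested.

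**Figure D4:**
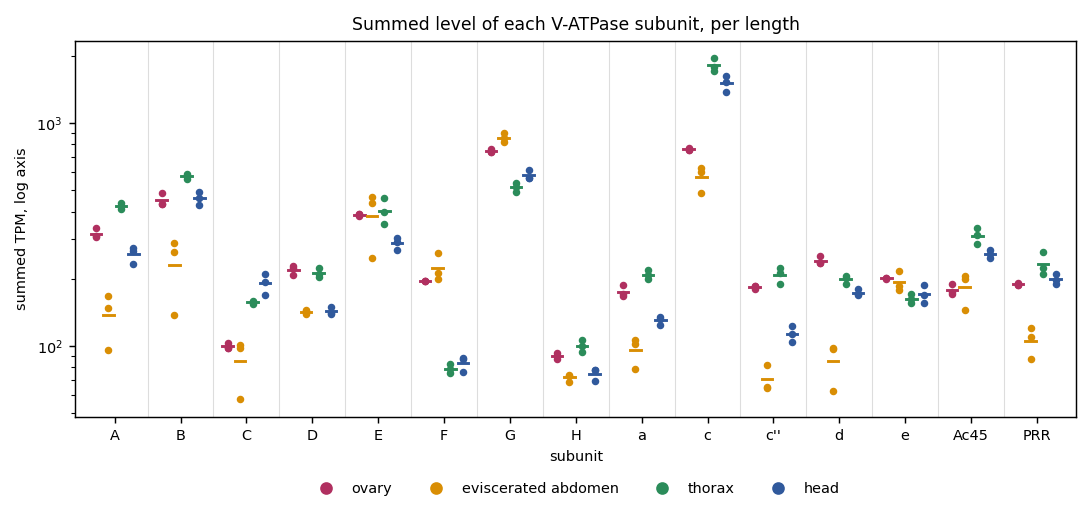
Summed TPM of all genes of each V-ATPase subunit (log axis), with points for the 3 libraries and a bar for the mean of each tissue. Subunit c lies at 1369 to 1957 TPM in thorax and head, and subunit F lies above 190 TPM in ovary and eviscerated abdomen and below 90 TPM in thorax and head.

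Genes that work with the pump were read from lists kept apart from the Vha symbols. Over all genes tested, 39.3% were higher and 46.4% lower in ovary, 35.8% and 39.2% in eviscerated abdomen, and 16.5% and 25.4% in thorax, each relative to head. Of 12 genes for assembly and signalling at the lysosome, which include the RAVE-like assembly factors Rbcn-3A and Rbcn-3B, the transcription factor Mitf and the Rag and Lamtor proteins of the nutrient-sensing complex, RagA-B was the 1 gene past the threshold in thorax relative to head, where it rose, while 7 rose and 4 fell in eviscerated abdomen relative to head and 6 rose and 2 fell in ovary relative to head. Mitf, a known activator of V-ATPase genes in the fly, averaged 218 CPM in ovary, 118 CPM in eviscerated abdomen, 77.5 CPM in thorax and 60.8 CPM in head, whereas Rbcn-3B averaged 46.9 CPM in ovary, 27.9 CPM in eviscerated abdomen, 117 CPM in thorax and 95.6 CPM in head. Of 13 lysosomal genes, 3 rose and 8 fell in ovary relative to head, 4 rose and 4 fell in eviscerated abdomen, and 5 rose and 2 fell in thorax. Of 7 genes for sodium-proton exchangers and carbonic anhydrases, 1 rose and 6 fell in ovary, 2 rose and 4 fell in eviscerated abdomen, and 2 rose and 2 fell in thorax, each relative to head.

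The mitochondrial ATP synthase, a rotary enzyme of related build that runs in the direction of ATP synthesis, gave a comparison over 11 subunit genes. In thorax relative to head 8 of them rose, with a median log2 fold change of 0.77, where 16.5% of all genes were higher and the V-ATPase genes had a median of 0.60. In eviscerated abdomen relative to thorax the ATP synthase genes gave 3 higher and 1 lower with a median of 0.39, where 35.5% of all genes were higher and 36.9% lower and the V-ATPase genes had a median of -0.84. In ovary relative to thorax 6 of the 11 fell, where 43.7% of all genes were lower, with a median of -0.48.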

How the data were processed

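Total RNA of 4 tissues was sequenced by the study in 3 libraries each, 12 of the 24 samples of the series. Per the study's methods and processing notes the authors aligned reads to dm3 (TopHat2 2.0.10) and summarized them per gene model in easyRNASeq; whether counting used the strand is not given in the sources used here. The deposited values are raw counts per gene and, in a second table, RPKM as computed by the authors, whose scale differs between tissues from that of the counts. Of the 34 genes, 10 overlap another gene on the RefSeq annotation, and close paralogues may share reads. Among the 10 are Vha100-1, Vha100-2, Vha44 and VhaM9.7-c and the scarcer Vha100-3, Vha100-4 and Vha100-5. The samples of piwi fat bodies and small RNAs were not used.

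The deposited counts were tested in R 4.3.3 with edgeR 4.0.16 (filterByExpr, TMM factors of 0.768 to 1.32, quasi-likelihood fit of all 12 libraries with tissue as the only term, prior count 0.125), 2-sided, with Benjamini-Hochberg adjustment over the 11188 genes kept and a threshold of 0.05. The study corrected for batches that it does not name, so the fit held no batch term. SE is the log2 fold change divided by the root of the F statistic. TPM was RPKM rescaled to the same total in each library. Shares of the deposited RPKM were tested exactly over all assignments of libraries to tissues, adjusted over 9 subunits. Intervals are exact (Clopper-Pearson) and, like the floor of 3 counts, cover counting error only. The precision rests on 3 libraries a tissue.

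Every member is named. Values of each library are given for genes that alone encode a subunit, genes with the highest mean RPKM of their subunit in some tissue, and the 3 largest called changes each way in each comparison; Vha68-1 and some further fold changes were added after their values were seen, as was the testis list. The members and lists were chosen with earlier results of these data known. Alternatives were DESeq2 1.42.0, upper quartile factors, library size alone, no filter or 1 CPM in 3 libraries, a replicate block, a fit of the compared tissues by themselves, limma 3.58.1 on log2 RPKM with 0.1 or 1 added, and each library left out; for shares, raw counts, 0.1 added, or paralogues under 1 RPKM left out. The tests were tried on simulated data. Shares and figures were made in Python 3.11.15 (pandas 2.3.3, matplotlib 3.10.9, numpy 2.4.6). Promoter and protein sequences were not analysed here.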

Additional observations from a re-analysis of the deposited data

How the results depend on the processing

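Of 62 changes named for single genes, tried under 1300 alternatives in all, 1275 kept direction and call, 17 missed the threshold (6 changes) and 8 reversed (4 changes, each under limma on log2 RPKM with 0.1 and with 1 added). The reversed log2 values were -0.102 and -0.0992 for VhaM9.7-b in eviscerated abdomen against thorax, and in ovary against head 1.29 and 1.25 for Vha44, 1.22 and 1.15 for Vha100-1 and 1.23 and 1.22 for Vha16-1. On RPKM with 0.1 and with 1 added, eviscerated abdomen against head gave 6 and 6 genes lower, eviscerated abdomen against thorax 1 and 1 higher, ovary against eviscerated abdomen 19 and 19 higher and 5 and 3 lower, ovary against head 18 and 18 higher and 6 and 6 lower, and ovary against thorax 13 and 13 higher and 5 and 5 lower, and for thorax against head, all genes called numbered 7254 and 7187, against 4690. By library size alone, 6 genes were higher in eviscerated abdomen against thorax, 10 in ovary against eviscerated abdomen, 15 in ovary against head and 7 in ovary against thorax, with 8 lower there. With no filter on low counts, 16 were lower in ovary against head. The median log2 fold change of all genes ran from -0.36 to 0.57 by library size alone and from -0.63 to 1.95 on RPKM, and the cause was not tested.

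The summed level over head was 0.806 in ovary, 0.803 in eviscerated abdomen and 1.598 in thorax by TMM, 1.15, 0.932 and 1.41 for these tissues by library size alone, and 4.37, 1.21 and 3.01 on RPKM. Leaving out each library gave 3 to 6 genes lower in thorax against head, and an adjusted p of 0.00511 to 0.0698 for the shares of F, 0.00409 to 0.0698 for c'' and 0.0299 to 0.273 for d, which passed the threshold without head replicate 2 (0.0321) or head replicate 3 (0.0299). Leaving out paralogues under 1 RPKM left a single gene for F, c'' and d, so it gave no value there. Deviations from the tissue mean correlated weakly between same-numbered libraries of different tissues (-0.181 to 0.131, median 0.0262, over 0.1 in 3 of 18 pairs). Pairs with different numbers gave -0.204 to 0.229 (median 0.00122, over 0.1 in 3 of 36 pairs). These values cannot settle whether same-numbered libraries share flies or a batch. With the replicate block the V-ATPase genes gave 15 higher and 6 lower in thorax against head, and in eviscerated abdomen against head 3914 of all genes were higher and 4322 lower. Genes with few counts are limited by depth, above all in eviscerated abdomen and thorax.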
